A study of Arabidopsis thaliana with 12 samples.

Results

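The transcripts of the plastid genome of Arabidopsis thaliana were followed through roots and shoots of seedlings that lacked Fe in the medium or lacked IRT1, the main transporter for Fe uptake into roots. A probe set, the set of short oligonucleotides that reads 1 transcript on an Affymetrix array, was taken as a member where the platform annotation gives it a single gene and that gene lies on the chloroplast genome in the RefSeq table. This rule gave 69 probe sets for 69 distinct genes, among 22746 probe sets tested. The members hold 5 genes of photosystem I (psa), 15 of photosystem II (psb), 6 of the cytochrome b6f complex (pet), 10 of the NADH dehydrogenase-like complex (ndh) and 6 of the ATP synthase (atp). A further 7 encode proteins of the large ribosomal subunit (rpl), 8 of the small subunit (rps) and 4 the plastid RNA polymerase (rpo). The other 8 are rbcL, accD, clpP, matK, ccsA, cemA, ycf3 and ycf4. The RefSeq table lists 78 distinct plastid gene symbols for proteins, and 8 more plastid probe sets name several genes and are not members.

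The 12 arrays fall into 6 groups with 2 biological replicates each. In each tissue, roots or shoots, the groups were wild-type plants without added Fe, irt1 plants with Fe, and wild-type plants with Fe. The series names the mutant irt1-2 (pam42) and its wild type Col-0, and the labels tie each array to tissue, genotype and Fe supply. All plants were raised for 10 days on control medium with sucrose and then held for 5 days on agar washed with EDTA, with 10 µM Fe-HBED (an Fe chelate) or with Fe left out. Tissue was taken at 15 days of age, 3 h after dawn in a cycle of 11 h light and 13 h dark. No source used here says whether replicates came from separate plates or how many seedlings were pooled. The p-values thus measure the spread between these arrays, which may be technical. In the main model the spread of each probe set is estimated over all 12 arrays, roots and shoots together. The probe set of IRT1 is not named in the annotation, so the mutation was not checked on the arrays.

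The plastid genome is a small remnant of a cyanobacterial genome, present in many copies in each plastid and transcribed largely as polycistronic operons. It encodes core subunits of the photosynthetic complexes, while the nucleus encodes the remaining subunits and the light-harvesting antennae. Photosystem I, with its Fe-S clusters, and the cytochrome b6f complex, with hemes and an Fe-S protein, are among the largest users of Fe in a leaf cell. Transcription is shared by a plastid-encoded polymerase, whose core subunits are the rpo genes, and nuclear-encoded polymerases. Root plastids are mostly non-green and carry the same genome at low transcript levels. Poly(A) tails mark plastid RNAs for decay, and how the RNA was primed for labelling is not given in the sources used here beyond the standard Affymetrix protocol.

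Members covered most of the measured scale, which runs from 1.9 to 13.5 in log2 units after robust multi-array averaging (RMA). The median of the 69 members was 5.0 and 5.0 on the arrays of Fe-deficient wild-type roots, 5.9 and 6.5 in irt1 roots, and 6.2 and 6.4 in Fe-supplied wild-type roots. In shoots it was 9.8 and 9.6 in Fe-deficient wild type, 9.0 and 10.0 in irt1, and 9.9 and 10.0 in Fe-supplied wild type. The medians of all tested probe sets lay between 5.4 and 5.6 on every array. The 2 Fe-deficient root arrays thus lie below the other 4 root arrays, and replicate 1 of the irt1 shoots lies below the other 5 shoot arrays. On that irt1 shoot array the 3' probe set of 1 GAPDH control exceeded its 5' probe set by 1.6 log2 units, against 0.7 to 1 on the other 11 arrays. A second GAPDH control (0.2) and ubiquitin (1.4) lay within the ranges of the other 11, -0.1 to 0.2 and 1 to 1.4. Results that rest on it are given with and without it.

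**Figure D1:**
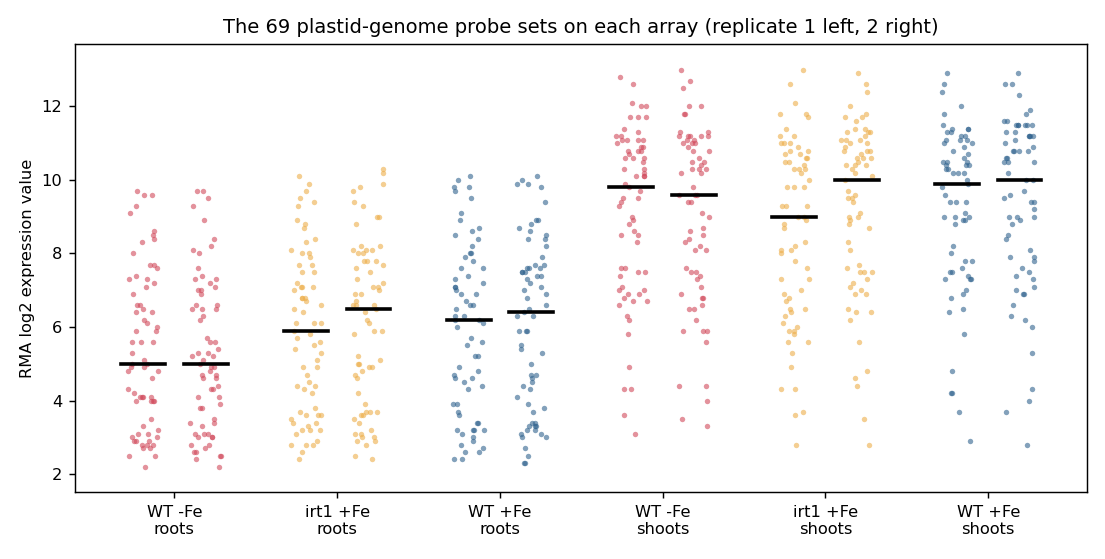
RMA log2 value (y axis) of each of the 69 plastid-genome probe sets on each of the 12 arrays (x axis, replicate 1 left and replicate 2 right in each group). Points are probe sets and black lines are array medians. The median is 5.0 on both arrays of Fe-deficient roots, against 6.2 and 6.4 in Fe-supplied wild-type roots, and replicate 1 of the irt1 shoots is at 9.0 against 10.0 for replicate 2.

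The tissue labels were first checked on the same arrays. All 69 members were lower in Fe-supplied wild-type roots than in shoots (100%, against 22.8% of all tested probe sets called lower), with a median log2 difference of -3.25. A probe set is called here at an adjusted p under 0.05 in the limma model over all 22746 probe sets. Class medians of this difference were -4.08 for ndh, -3.95 for psa, -3.70 for atp, -3.65 for psb, -2.80 for pet and rpl, -2.78 for rps and -2.43 for rpo. The spread within classes was wide. The differences furthest below 0 were those of atpF, an ATP synthase stalk subunit, and psbA, the D1 protein of the photosystem II core, both at -5.50. They were followed by psbT at -5.35 and by psbB and petL at -5.15. Those nearest to 0 were ndhF (-0.50), petN (-0.80), petD (-0.85), rpoB (-1.05) and rps14 (-1.10). Of these 5, ndhF, petD, rpoB and rps14 lay at or below 4.4 on the Fe-supplied wild-type arrays of both tissues, near the bottom of the scale, where log2 differences are compressed. In bulk tissue, fewer plastids or green cells and less RNA per plastid cannot be told apart. The 23 probe sets of the mitochondrial genome had a median difference of -0.15, with 3 called lower in roots. The 4 measured root markers, EXPA7, EXPA18, PYK10 and XTH26, were all called higher in roots, and the 3 measured shoot markers RCA, PSAN and LHCB4.2 all lower.

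Roots of wild-type seedlings without Fe had less plastid-encoded RNA than roots with Fe. Of the 69 members, 22 were called lower and 0 higher, and 64 log2 fold changes were below 0, 4 above and 1 at 0. The median log2 fold change was -0.65, while that of all tested probe sets was 0. The 31.9% of members called lower stand against 2.50% of all tested probe sets. In 57 members (82.6%) both Fe-deficient arrays lay below both Fe-supplied arrays, a pattern seen in 18.7% of all tested probe sets. The called genes came from every class except rpo: 8 psb, 3 rpl, 2 psa, 2 rps, 1 each of pet, ndh and atp, and 4 of the mixed remainder.

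Among photosystem II genes, psbH fell furthest. It encodes a small phosphoprotein of the core, and read 5.3 and 4.6 in Fe-deficient roots, against 6.3 and 6.9 in Fe-supplied roots. The groups do not overlap, and the log2 fold change was -1.65 ± 0.32 (SE, limma adjusted p = 0.0112), a level 3.14-fold lower. psbK, another small core subunit, read 6.0 and 5.4 in Fe-deficient roots, against 7.0 and 7.5 in Fe-supplied roots. Its log2 fold change was -1.55 ± 0.22 (limma adjusted p = 0.0015). psbC encodes the CP43 inner antenna, and psbI a small core subunit. psbC read 5.0 and 5.2 in Fe-deficient roots, against 6.2 and 6.3 in Fe-supplied roots (log2 fold change -1.15 ± 0.14, limma adjusted p = 0.000608). psbI read 6.6 and 6.3 in Fe-deficient roots, against 7.4 and 7.6 in Fe-supplied roots (log2 fold change -1.05 ± 0.14, limma adjusted p = 0.000938). The replicates of both genes lay within 0.3 of each other, so the differences are several times that gap.

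The genes psbE and psbF encode the subunits of cytochrome b559, a heme protein of photosystem II, and belong to 1 operon with psbL and psbJ. psbE read 6.2 and 5.7 in Fe-deficient roots, against 6.9 and 7.4 in Fe-supplied roots, and psbF read 7.3 and 6.9 in Fe-deficient roots, against 8.2 and 8.4 in Fe-supplied roots. Both had a log2 fold change of -1.20, with limma adjusted p of 0.0277 for psbE and 0.0136 for psbF. psbJ also fell (-0.65, limma adjusted p = 0.0176), and psbL had a value of -0.95 that did not pass (adjusted p = 0.0544). psbZ completed the 8 called psb genes with -0.60. The D1 gene psbA, at 4.1 and 3.9 in Fe-deficient roots and 4.4 and 4.6 in Fe-supplied roots, did not pass (-0.50, limma adjusted p = 0.431), and its groups do not overlap.

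Photosystem I is represented by 5 genes, of which psaB and psaI were called. psaB encodes one of the large reaction-centre proteins that bind an Fe-S cluster. It read 6.4 and 6.5 in Fe-deficient roots, against 7.6 and 7.7 in Fe-supplied roots (log2 fold change -1.20 ± 0.19, limma adjusted p = 0.00275). Its partner psaA stood at 4.0 and 3.8 in Fe-deficient roots, against 4.5 and 4.7 in Fe-supplied roots, and did not pass (-0.70 ± 0.49, limma adjusted p = 0.582). The root groups of psaA do not overlap. The spread behind this SE is estimated over all 12 arrays, among them the irt1 shoots, where psaA read 8.1 and 10.1. psaI, a small subunit, read 5.1 and 5.2 in Fe-deficient roots, against 6.1 and 6.5 in Fe-supplied roots (-1.15, limma adjusted p = 0.0236). psaJ had -1.20 (adjusted p = 0.0826) and psaC, the carrier of the terminal Fe-S clusters, -0.45 (adjusted p = 0.768) in the same model.

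In the cytochrome b6f complex only petB was called. It encodes cytochrome b6, and read 8.5 and 8.2 in Fe-deficient roots, against 9.7 and 9.9 in Fe-supplied roots. At -1.45 ± 0.16 (limma adjusted p = 0.000312) it had the lowest adjusted p of all members, a level 2.73-fold lower. petD, encoded next to petB in the same operon, lay between 2.7 and 3.1 on these 4 arrays and had a value of 0.15. petA, for cytochrome f, had -0.75 (limma adjusted p = 0.0665), while petG, petL and petN lay between -0.35 and -0.10. The atp class had 1 called gene, atpA, for the alpha subunit, at -1.30 (limma adjusted p = 0.0351). It read 5.6 and 5.3 in Fe-deficient roots, against 6.5 and 7.0 in Fe-supplied roots. Of the ndh genes, ndhI, whose product holds Fe-S clusters, was called at -0.75 (limma adjusted p = 0.0417), reading 7.4 and 7.1 in Fe-deficient roots and 7.8 and 8.2 in Fe-supplied roots. The members with the highest fold changes were ndhG (0.30), petD (0.15), ndhF (0.10), ndhE (0.05) and rps14 (0). All 5 lay at or below 4.0 on these arrays, and none passed the test.

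Outside the photosynthetic complexes, rbcL, the large subunit of the CO2-fixing enzyme Rubisco, read 5.6 and 5.6 in Fe-deficient roots, against 6.7 and 7.3 in Fe-supplied roots (log2 fold change -1.40 ± 0.24, limma adjusted p = 0.00572). cemA, an envelope protein gene, fell by 1.35, the intron maturase gene matK by 1.25 and ccsA, needed to attach heme to c-type cytochromes, by 1.15 on the log2 scale. Their limma adjusted p-values were 0.014, 0.0106 and 0.0263 in that order. For the ribosome, rpl33 read 7.2 and 7.0 in Fe-deficient roots, against 8.0 and 8.4 in Fe-supplied roots (-1.10, limma adjusted p = 0.00427). rpl22, rpl36 and rps4 were each called at -0.90 and rps19 at -0.75. rpl14 had -1.40 with replicates of 5.6 and 4.3 in Fe-deficient roots, against 6.3 and 6.4 in Fe-supplied roots, and did not pass (limma adjusted p = 0.0669). accD, a subunit of the acetyl-CoA carboxylase that starts fatty acid synthesis, had -1.25 (adjusted p = 0.0623). clpP, a protease subunit, had -0.30 (adjusted p = 0.513). The polymerase genes had -0.85 (rpoC1), -0.50 (rpoC2), -0.25 (rpoA) and -0.15 (rpoB), with limma adjusted p of 0.0549 or more.

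**Figure D2:**
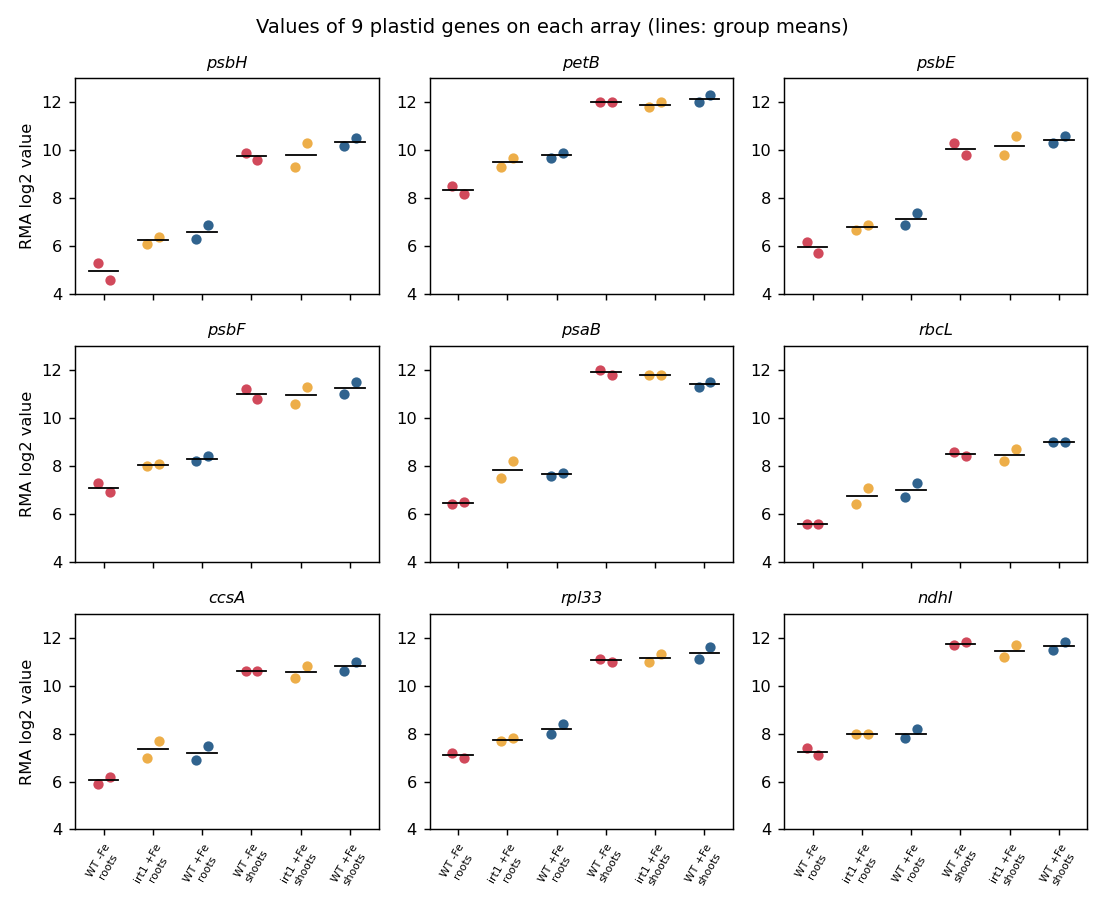
RMA log2 value (y axis) of 9 plastid genes on each array, by group (x axis); points are arrays and lines are means of 2 arrays. In roots, both Fe-deficient arrays lie below both Fe-supplied wild-type arrays for all 9 genes (psbH 5.3 and 4.6 against 6.3 and 6.9), and in shoots all 9 are at 8.2 or above on every array. All 9 were called lower in Fe-deficient roots, so their separation there does not stand for the other members.

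By class, the median log2 fold change in Fe-deficient roots was -1.15 for psa, -0.95 for psb, -0.90 for rpl, -0.53 for atp and rps, -0.38 for rpo, -0.35 for pet and -0.20 for ndh. The members differ in level, and the calls fell on the brighter ones. Of 18 members under 4 in Fe-supplied roots, 0 were called, with a median of -0.20. Of 14 between 4 and 6, 0 were called by the adjusted p and 7 had an unadjusted p under 0.05, with a median of -0.68. Of 22 between 6 and 8, 14 were called, with a median of -1.15. Of 15 at 8 or above, 8 were called, with a median of -0.75. The lowest level of a called member was 6.25. The spread behind these calls also holds the shoot arrays, where some members dim in roots, such as psbB and psbT, had irt1 replicates far apart. Across the 69 genes Pearson's r was -0.49 between this level and log2 fold change, and -0.02 between gene length and log2 fold change. The level is also a term of the fold change, which makes r more negative by construction. With the level taken from irt1 roots instead, r was -0.45. In irt1 roots, where 0 members were called, the r between level in Fe-supplied wild type and log2 fold change was -0.37, and -0.28 with the level taken from Fe-deficient roots. Genes are not independent points. The classes with the medians nearest to 0 had low signals: in Fe-supplied roots the array median was 3.65 and 3.35 for ndh and 4.1 and 4.0 for pet. Whether class matters beyond level was not tested.

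**Figure D3:**
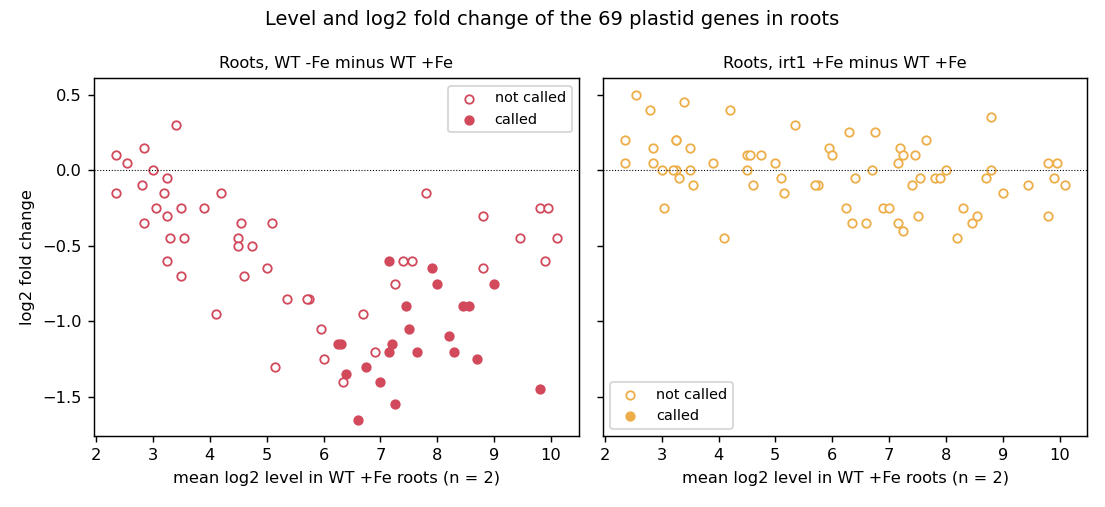
Mean RMA log2 level in Fe-supplied wild-type roots (x axis, n = 2 arrays) against log2 fold change (y axis) for 69 plastid genes, in Fe-deficient wild-type roots (left) and irt1 roots (right). Filled points are genes called by limma. The 22 called genes on the left all start at 6.25 or above, and 0 are called on the right.

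Genes of 1 operon did not share 1 value. In the psbB operon, which joins psbB, psbT, psbH, petB and petD, log2 fold changes in Fe-deficient roots ran from -1.65 for psbH to 0.15 for petD, with 2 of 5 called. The psbE operon was tighter, from -1.20 to -0.65 with 3 of 4 called. In the petA operon (psaI, ycf4, cemA and petA) the range was -1.35 to -0.75 with 2 of 4 called. Of the 7 measured genes of the long ribosomal protein operon that starts with rpl23, 3 were called, and all 7 lay between -1.40 and -0.25. The ndhH operon ranged from -1.30 for ndhA to 0.30 for ndhG, with ndhI alone called of 7. The genes at the upper ends of the psbB and ndhH operons were dim. On these root arrays petD lay between 2.7 and 3.1 and ndhG between 3.2 and 4, where a fall would be compressed. The genes known as targets of nuclear-encoded polymerases (accD, rpoB, rpoC1 and rpoC2) had a median of -0.68, with 0 called and 3 at an unadjusted p under 0.05. A list of 10 photosynthesis genes known to depend on the plastid-encoded polymerase had a median of -1.05, with 5 called. The difference between these lists was not tested. In Fe-supplied roots accD, rpoB, rpoC1 and rpoC2 all lay at or below 6.3, and psbB of the second list read 3.9 and 4.3.

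Several other measures moved with the low plastid transcripts of Fe-deficient roots. The 3 shoot markers, RCA, PSAN and LHCB4.2, were all called lower, and their summed level was 7.66 and 7.48 in Fe-deficient roots, against 8.71 and 8.94 in Fe-supplied wild-type roots. The dimmest of the 3, PSAN, read 5.1 and 4.9 in Fe-deficient roots, against 6.8 and 7.0 in Fe-supplied roots. Of the 4 root markers, XTH26 (2.35) and EXPA18 (0.70) were called higher, against 2.69% of all tested probe sets. EXPA7 (0.20) and PYK10 (-0.25) were not called. Nuclear genes of photosystems I and II were measured for 7 of 43 listed, with a median of -0.95. Of these 7, 6 were called lower, against 2.50% of all tested probe sets. They were PSAN (-1.90), LHCB4.2 (-1.25), LHCB4.1 (-1.20), PSAE1 (-0.95), PSBY (-0.95) and PSBW (-0.80). PSAN and LHCB4.2 are the same probe sets that served as shoot markers. PETM, a small b6f subunit, fell by 1.1 and ATPC1, the gamma subunit of the ATP synthase, by 1.15 on the log2 scale. Nuclear genes of plastid ribosomal proteins fell in 4 of 6 measured (27 listed), among them PRPL5, PRPL3 and PRPS6, each at -0.75. Of the 2 measured nuclear ndh genes (8 listed), 0 were called. The 23 mitochondrial probe sets had a median of -0.05 with 0 called, and 1 of them had an unadjusted p under 0.05. Among the controls of RNA integrity, only 1 pair, an actin, set the groups apart. The 3' minus 5' difference of this actin control was 1.4 and 1.7 in Fe-deficient roots, against 1.2 and 1 in Fe-supplied roots. That of GAPDH was 0.8 and 1 in Fe-deficient roots, against 0.7 and 0.8 in Fe-supplied roots. For a second actin control it was 3.5 and 3.4 in Fe-deficient roots, against 3.6 and 3.3 in Fe-supplied roots. Ubiquitin had 1.3 and 1.4 in Fe-deficient roots, against 1.3 and 1.3 in Fe-supplied roots. A second GAPDH control had 0.1 and 0.2, against 0.1 and 0.1. The part of these measures in the plastid result was not tested.

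The number of calls in roots depended on single arrays, among all probe sets as well. With each of the 4 arrays left out in turn, the count of members called lower was 15 without Fe-deficient replicate 1, 5 without Fe-deficient replicate 2, 11 without Fe-supplied replicate 1 and 5 without Fe-supplied replicate 2, and the median log2 fold change stayed between -0.75 and -0.55. As shares, 21.7%, 7.25%, 15.9% and 7.25% of members were called lower in these fits, against 1.76%, 0.910%, 1.3% and 0.875% of all tested probe sets. petB, psaB, psbC, psbI and psbK were called in all 4. The other 17 lost their call in at least 1, and atpA, ndhI, psaI, psbJ, psbZ and rps4 lost it in all 4.

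Roots of irt1 plants, which had Fe in the medium, were not shown to differ from wild-type roots in plastid transcripts. Of 69 members, 0 were called in either direction by limma, against 3.40% of all tested probe sets, and 2 had an unadjusted p under 0.05. The median log2 fold change was 0, with 29 values above 0, 32 below and 8 at 0. The highest values were those of ndhE (0.50), ndhG (0.45), petL (0.40), rps15 (0.40) and clpP (0.35), and the lowest those of psbB and rpl33 (-0.45), psbK (-0.40), and psbE, psbH, rpl14 and rpl22 (-0.35). None passed the test. psbH read 6.1 and 6.4 in irt1 roots, against 6.3 and 6.9 in wild type. petB read 9.3 and 9.7 in irt1 roots, against 9.7 and 9.9 in wild type. rbcL read 6.4 and 7.1 in irt1 roots, against 6.7 and 7.3 in wild type, so all 3 genes overlap or meet between the groups. The 95% interval of the log2 fold change was -1.05 to 0.35 for psbH and -0.66 to 0.06 for petB. These genes were among the furthest below 0 in Fe-deficient wild type. Class medians ran from -0.30 for rpl to 0.08. The 2 irt1 root arrays differ for some members, such as atpA at 6.5 and 7.5 and accD at 5.6 and 6.6, and replicate 1 had the lower value for all 8 of the mixed remainder. Leaving out irt1 replicate 1 gave 1 member called higher, and leaving out irt1 replicate 2 gave 1 called lower.

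Nuclear photosystem genes in irt1 roots gave other values. Of the same 7, 6 were called lower, with a median of -0.95, among them PSAN (-1.20), LHCB4.2 (-1.05), PSAE1 (-1) and PSBW (-0.95). The seventh, LHCB4.3, had 0.55 and did not pass (limma adjusted p = 0.127). PETM was at -1.15 and ATPC1 at -0.55, both called. Of the 6 nuclear plastid ribosomal protein genes, PRPL3 (-0.65) and PRPL5 (-0.60) were called. The shoot markers had a summed level of 7.84 and 8.09 in irt1 roots, against 8.71 and 8.94 in wild type, and all 3 were called lower. So in irt1 roots 6 of 7 measured nuclear photosystem genes and 0 of 69 plastid members were called lower, against 1.52% of all tested probe sets. In Fe-deficient wild-type roots 6 of 7 and 22 of 69 were, against 2.50%. These counts depend on the SE, which lay between 0.10 and 0.17 for the 7 nuclear genes. It was larger for some plastid members, such as psaA and psbH, so the counts alone cannot set the sets apart. The median log2 fold change in irt1 roots was -0.95 for the 7 nuclear genes and 0 for the plastid members. In Fe-deficient roots it was -0.95 and -0.65. The difference between the sets was not tested, and both comparisons share the Fe-supplied wild-type arrays.

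**Figure D4:**
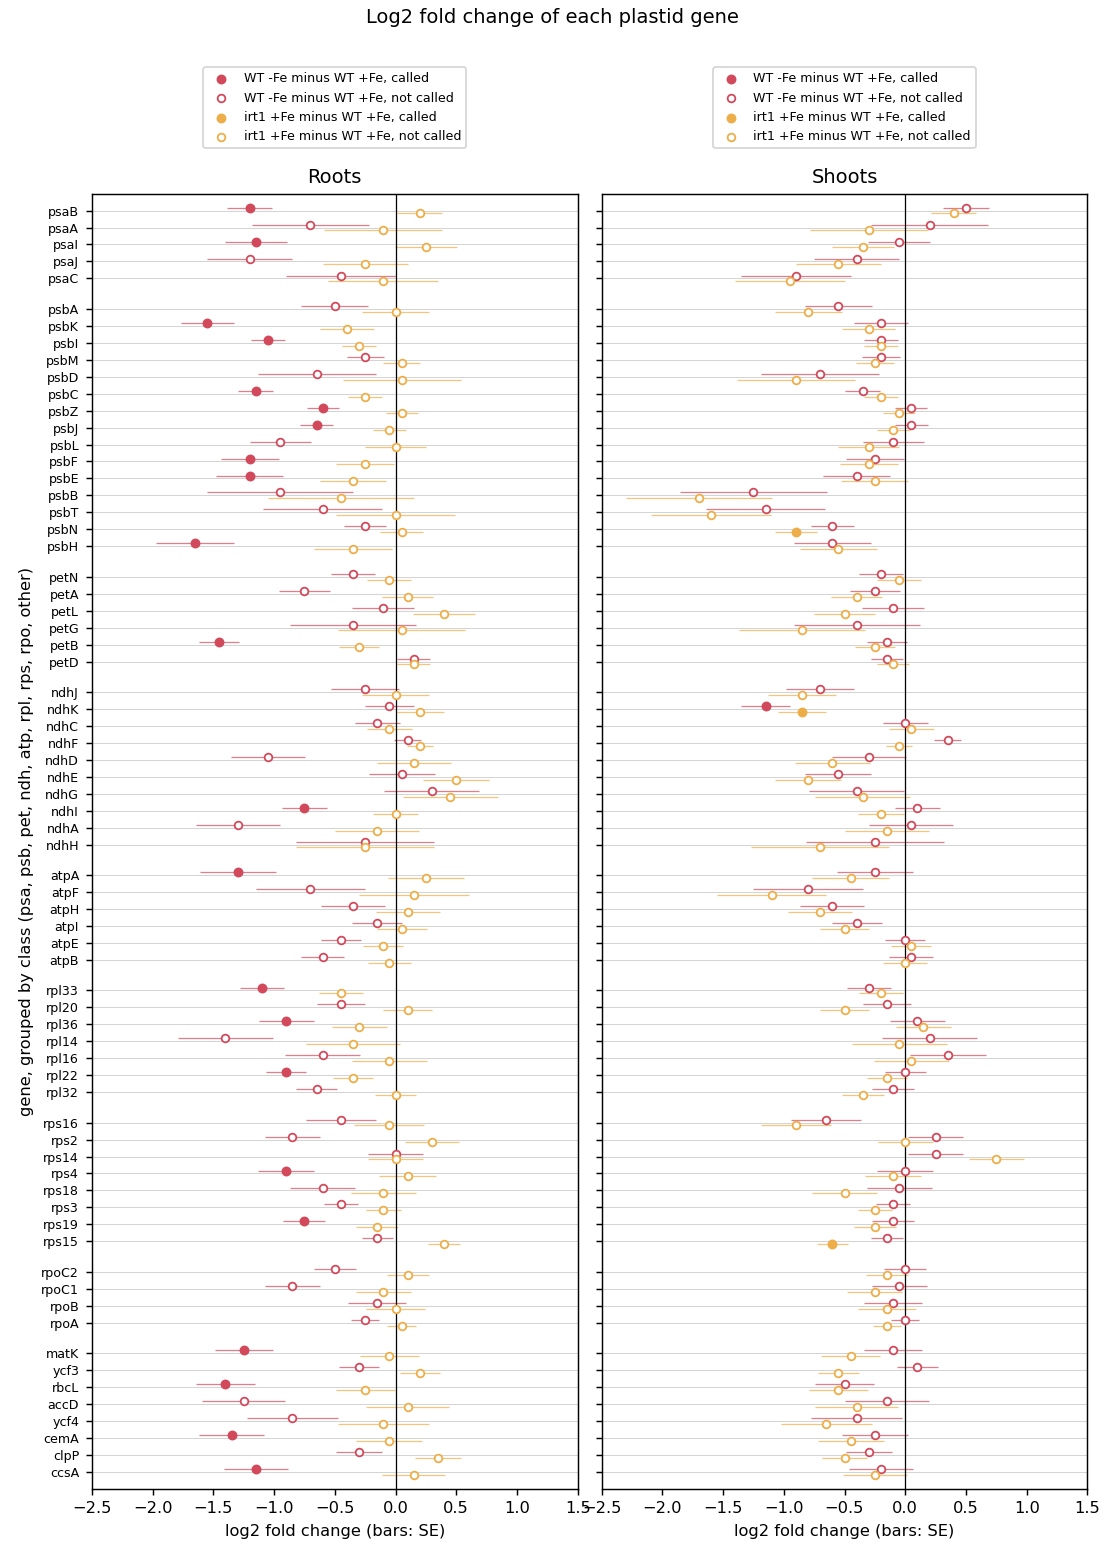
Log2 fold change (x axis, bars are SE from limma) of each of the 69 plastid genes (y axis, grouped by class), in roots (left) and shoots (right). Red is Fe-deficient against Fe-supplied wild type, and yellow is irt1 against wild type with Fe; filled points were called. In roots 22 red points and 0 yellow points are filled, and in shoots 1 red and 3 yellow.

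Set directly against Fe-deficient wild-type roots, irt1 roots had higher levels of some plastid transcripts. In this contrast 13 members (18.8%) were called higher, against 1.06% of all tested probe sets, and 0 lower, with a median of 0.60. All 69 values were at or above 0, with 3 of them at 0 (ndhH, petD and rps14). atpA read 6.5 and 7.5 in irt1 roots, against 5.6 and 5.3 in Fe-deficient wild type (1.55 ± 0.31, limma adjusted p = 0.0309). psaB read 7.5 and 8.2 in irt1 roots, against 6.4 and 6.5 in Fe-deficient wild type (1.4 ± 0.19, limma adjusted p = 0.00412). These levels of psaB overlap those of Fe-supplied wild type, at 7.6 and 7.7. psaI (1.4), cemA and ccsA (1.3), matK (1.2), rbcL, petB, psbK and rps2 (1.15), psbC (0.90), psbI (0.75) and psbZ (0.65) were the other called members. accD (1.35) and psbH (1.3) did not pass, and ndhF and ndhC were at 0.10. Of the 13, 12 are among the 22 called lower under Fe deficiency and rps2 is not; the contrasts share the Fe-deficient arrays, so this overlap is no separate evidence. Other measures moved with these members. PSAN, a shoot marker, was called higher (0.70, limma adjusted p = 0.0431), while the other shoot markers RCA (0.40) and LHCB4.2 (0.20) did not pass, and ATPC1 was called at 0.60. The 3' minus 5' difference of the actin control was 1.3 and 1.2 in irt1 roots, against 1.4 and 1.7 in Fe-deficient wild-type roots. The other control pairs overlapped or met between these groups. Their part in the result was not tested. The fit on the 6 root arrays alone called 0 members, and 8 of all 22746 probe sets higher. With 1 array left out at a time, the median over members stayed between 0.55 and 0.75. Leaving out 1 array of either group lowered the calls among all tested probe sets too, as well as the count of members. In these 4 fits both counts fell most without replicate 2 of either group. psaB was called in all 4. Without irt1 shoot replicate 1, an array of neither group, the calls among members and among all tested probe sets both rose.

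In shoots, Fe deficiency changed few plastid transcripts measurably. ndhK, a subunit of the NADH dehydrogenase-like complex, was the 1 member called lower (1.45%, against 2.19% of all tested probe sets), and 0 were called higher. It read 7.0 and 6.6 in Fe-deficient shoots, against 8.0 and 7.9 in Fe-supplied shoots, with no overlap (log2 fold change -1.15 ± 0.20, limma adjusted p = 0.0071). Without Fe-deficient replicate 2 its log2 fold change was -0.95 and it did not pass. Its operon neighbours had log2 fold changes of -0.70 (ndhJ) and 0 (ndhC), and neither passed.

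Values of the 69 members in Fe-deficient shoots were below 0 for 49 and above 0 for 14, with a median of -0.15. The lowest value was that of psbB (-1.25), followed by psbT (-1.15, as for ndhK), psaC (-0.90) and atpF (-0.80), and of these ndhK alone was called. psbB, the CP47 inner antenna, read 8.5 and 7.5 in Fe-deficient shoots, against 9.6 and 8.9 in Fe-supplied shoots (SE 0.60), so replicates lie far apart in both groups and the groups still do not overlap. The highest were psaB (0.50), ndhF and rpl16 (0.35), and rps2 and rps14 (0.25). psaB read 12 and 11.8 in Fe-deficient shoots, against 11.3 and 11.5 in Fe-supplied shoots, and did not pass (limma adjusted p = 0.161) although its groups do not overlap. All 3 genes of its operon, psaA, psaB and rps14, had values above 0. Class medians were -0.35 for psb, -0.33 for atp, -0.28 for ndh, -0.18 for pet, -0.08 for rps, -0.05 for psa, -0.03 for rpo and 0 for rpl. rbcL was at -0.50, petB at -0.15, psbE at -0.40, psbF at -0.25, psbH at -0.60, ccsA at -0.20, rpl33 at -0.30, psbA at -0.55, psaA at 0.20, accD at -0.15, clpP at -0.30 and ndhI at 0.10. None of these 12 passed.

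**Figure D5:**
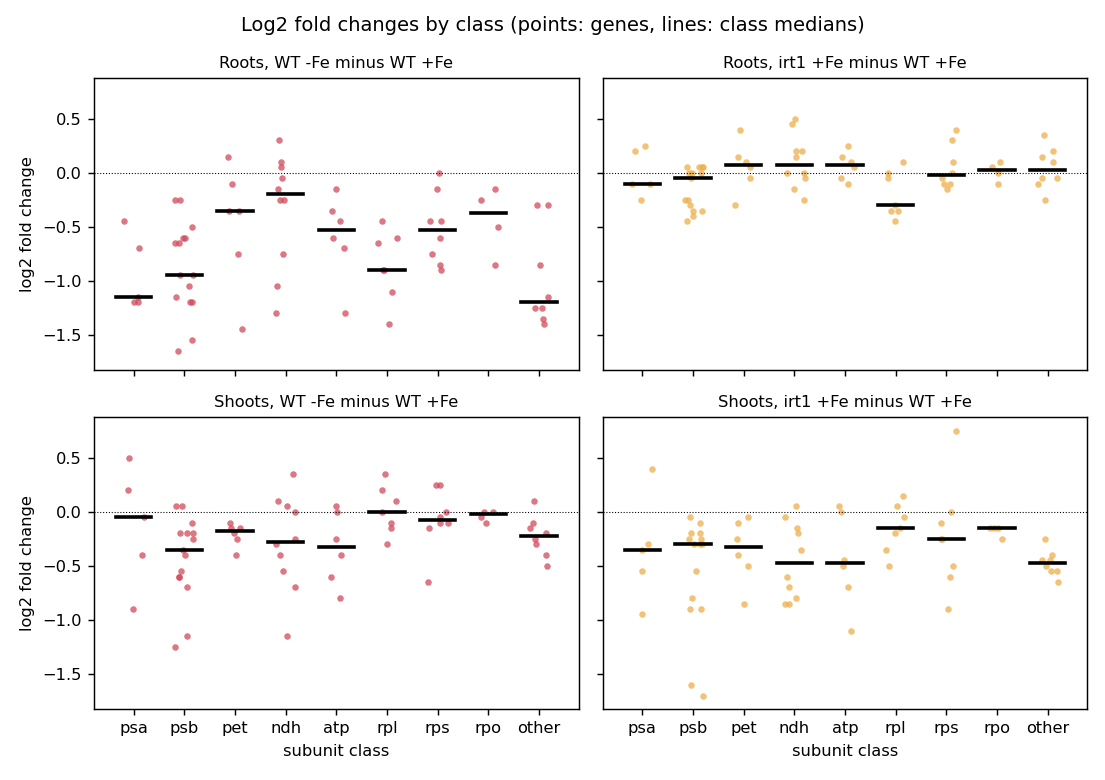
Log2 fold change (y axis) of the 69 plastid genes by subunit class (x axis) in the 4 comparisons; points are genes and black lines are class medians. In Fe-deficient roots class medians lie between -1.15 for psa and -0.20 for ndh among the named complexes, while in irt1 roots they lie between -0.30 and 0.08.

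Nuclear partner genes were also called in shoots. Of the 7 nuclear photosystem genes, LHCB4.3 (-1.95), PSAN (-1.50) and PSBW (-0.55) were called lower in Fe-deficient shoots, against 2.19% of all tested probe sets. PETM fell by 1.35 on the log2 scale, while ATPC1 was at -0.1 and not called. Of the 6 nuclear plastid ribosomal protein genes 0 were called. In irt1 shoots the same 3 photosystem genes were at -1.75, -1.05 and -0.50 and PETM at -0.95, all called, against 1.65% of all tested probe sets called lower. ATPC1 was at -0.2 there and not called. LHCB4.3 is a protein of the photosystem II antenna and PSAN a photosystem I subunit.

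In irt1 shoots 3 members were called lower (4.35%, against 1.65% of all tested probe sets) and 0 higher. psbN, needed to assemble photosystem II, read 6.4 and 6.4 in irt1 shoots, against 7.3 and 7.3 in wild type (log2 fold change -0.90 ± 0.17, limma adjusted p = 0.0172). ndhK read 7.0 and 7.2 in irt1 shoots, against 8.0 and 7.9 in wild type (-0.85 ± 0.20, limma adjusted p = 0.0414). The ribosomal protein gene rps15 read 6.5 and 6.2 in irt1 shoots, against 7.0 and 6.9 in wild type (-0.60 ± 0.13, limma adjusted p = 0.0287). ndhK was thus called lower in both Fe-poor shoots and irt1 shoots, comparisons that share the wild-type arrays. Without irt1 replicate 1, rps15 kept its call (adjusted p = 0.0341), while psbN (0.109) and ndhK (0.23) did not pass in limma. psbN and ndhK passed in none of the 4 fits that leave out 1 array, and rps15 in that 1 alone.

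The median over members in irt1 shoots was -0.30, with 61 values below 0, and it rests on replicate 1. That array lay below replicate 2 for 57 of 69 members, by a median of 0.5, and the gaps reached 2.6 for ndhH, 2.5 for psbB, 2.2 for psbT, 2.1 for petG, and 2 for psaA and atpF. psaA for example read 8.1 and 10.1 in irt1 shoots, against 9.4 and 9.4 in wild type. The SD of the gap over members was 0.704 there, against 0.285 to 0.381 in the other 5 groups. Without replicate 1 the median was -0.05, with 41 members below 0. Without replicate 2 it was -0.65. Without wild-type replicate 1 or 2, 0 were called. The lowest values in the full fit, psbB (-1.70), psbT (-1.60), atpF (-1.10) and psaC (-0.95), all belong to genes with such gaps and did not pass. The highest was rps14 (0.75), which read 5.3 and 4.4 in irt1 shoots, against 4.2 and 4.0 in wild type, followed by psaB (0.40) and rpl36 (0.15). On this array the actin controls also had a 3' minus 5' difference of 3.7 and 1.9, against at most 3.6 and 1.7 on the other 11. Ubiquitin and a second GAPDH control lay within the range of the other 11. The part of RNA integrity in these gaps was not tested.

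The irt1 shoots and Fe-deficient wild-type shoots were not shown to differ. Of 69 members 0 were called by limma (0.409% of all tested probe sets in either direction), 4 had an unadjusted p under 0.05, and the lowest adjusted p was 0.162 for ycf3 (-0.65). The median was -0.15, and 0.15 without irt1 replicate 1. The highest values were those of rps14 (0.50) and ndhK (0.30), and the lowest after ycf3 was that of psaA (-0.50).

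The response to Fe deficiency differed between shoots and roots for 4 members, tested as the shoot log2 fold change minus the root log2 fold change. All 4 were higher in this difference (5.80%, against 1.42% of all tested probe sets) and 0 lower, and the median over members was 0.55. psaB had a difference of 1.70 ± 0.26 (limma adjusted p = 0.00551), made of 0.50 in shoots and -1.20 in roots. For psbK it was 1.35 (adjusted p = 0.0401), for petB 1.3 (0.0126) and for psbI 0.85 (0.0404), each with -0.20 or -0.15 in shoots. rpl14 (1.60) and ndhA (1.35) were also among the highest and did not pass. The lowest, ndhK, had -1.10 (limma adjusted p = 0.0646), made of -1.15 in shoots and -0.05 in roots, where it lay between 3.0 and 3.4, near the bottom of the scale. ndhG (-0.70) and ndhE (-0.60) came next. psaB stayed called in all 8 fits that left out 1 of the arrays compared. The count of members fell most without Fe-deficient root replicate 2, Fe-supplied root replicate 2 or either Fe-deficient shoot array. It also fell without Fe-supplied shoot replicate 1, and rose without irt1 shoot replicate 1, an array of neither group. Calls among all tested probe sets moved in these fits too.

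For irt1 the same difference called 1 member lower (1.45%, against 1.13% of all tested probe sets) and 0 higher. It was rps15, at -1 ± 0.18 (limma adjusted p = 0.019), made of -0.60 in shoots and 0.40 in roots. It was called in 5 of 8 fits that left out 1 array, and lost its call without replicate 2 of either root group or without wild-type shoot replicate 1. The median over members was -0.30. Without irt1 shoot replicate 1 it was -0.05 with rps15 still called, and without irt1 shoot replicate 2 it was -0.65. The lowest values were those of psbT (-1.60), ndhE (-1.30), and psbB and atpF (-1.25), and the highest that of rps14 (0.75), all not called.

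The 8 plastid probe sets with several genes, which read copies in the inverted repeat among others, were not members but add a view of the same genome. In Fe-deficient roots 2 of them were called lower, with a median of -0.58. In irt1 roots 0 were called and the median was 0.03. In shoots 0 were called in either comparison, with medians of 0.05 under Fe deficiency and -0.08 in irt1.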

How the data were processed

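Expression was measured on 12 Affymetrix arrays (6 groups of 2). The deposited values are log2 expression values made with RMA, per the submitters' processing notes, rounded to 1 decimal; whether roots and shoots were normalised together is not given in the sources used here. Rounding makes a difference between 2-array means move in steps of 0.05. The number of arrays limits the precision.

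Genes were named by the GEO platform table, whose names may be outdated: 13513 probe sets had 1 gene, 503 several, and 8730 are unnamed here. Symbols were updated by gene ID through the RefSeq table of assembly TAIR10.1, where 13436 matched. Mitochondrial probe sets were taken by symbol, and 64 control probe sets were left out.

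All 12 arrays entered 1 linear model in limma 3.58.1 (R 4.3.3) with a mean per group, and 9 contrasts were tested with eBayes, two-sided, with Benjamini-Hochberg adjustment over 22746 probe sets and a threshold of 0.05. The fit was tested on simulated data. Alternatives were fits on fewer arrays, a replicate block, array weights, a trended robust prior, other scalings, a filter at a mean of 5, and leaving out each array; the fits without irt1 shoot replicate 1 for contrasts that do not hold it were added after seeing the data.

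Named genes were the called members of the 4 main comparisons, the 5 highest and 5 lowest of each contrast and a set list of plastid genes. Members, lists and tests were chosen with earlier results of these data known. Nuclear lists of plastid transcription (1 of 20 measured, RPOTmp, not called) and RNA maturation (0 of 16 measured) gave no call. Same-numbered replicates did not deviate together in every pair (r between -0.0915 and 0.199 over 15 pairs of groups, 8 of them over 0.1), and no label says that a number marks a shared batch, so the numbers were not used to pair arrays. No sequences of the members are shown, since none were used here.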

Additional observations from a re-analysis of the deposited data

Results flagged for a closer look

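The response to Fe deficiency differed between shoots and roots for 4 plastid genes, by limma's test of the shoot log2 fold change minus the root log2 fold change. The differences were 1.70 for psaB, 1.35 for psbK, 1.3 for petB and 0.85 for psbI, and 1.42% of all tested probe sets were called in this direction. Of 8 fits that each left out 1 array, psaB was called in 8, petB in 4, psbK in 2 and psbI in 1. The response to irt1 differed between shoots and roots for rps15, by -1. It was called in 5 of 8 such fits, and 1 of 69 members (1.45%) stands against 1.13% of all tested probe sets. These are among 69 members tested in each contrast. All 5 genes have lower levels in roots than in shoots.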

How the results depend on the processing

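No called result changed direction under any alternative. Over 175 results for single genes, 2255 alternative values were computed: 1996 kept their side of the threshold, 215 lost it and 44 gained it. With only the 6 arrays of a tissue, 6 members were called lower in Fe-deficient roots, and with only the 4 arrays compared 0 were, although 44 had an unadjusted p under 0.05 in each of these fits. Of all 22746 probe sets these fits called 244 (1.07%) and 0 lower, so the loss covers the whole array. An unadjusted p under 0.05 was reached by 4367 and 4053 of the 22746 in these fits. Both fits called 0 in Fe-deficient shoots, in irt1 shoots and between irt1 and Fe-deficient roots, and the fit on the groups compared called 0 in the irt1 difference between tissues. Array weights gave 23 higher between irt1 and Fe-deficient roots (33.3%, against 1.49% of all tested probe sets) and 0 in irt1 shoots. In Fe-deficient shoots, centring arrays on their median and quantile normalisation within tissue each gave 2 lower (2.90%), against 2.69% and 2.42% of all. The trended robust prior gave 1 higher and 1 lower there (1.45% each), against 3.06% and 2.33%. Quantile normalisation also gave 2 lower for the irt1 difference between tissues (2.90%, against 1.29%). The Fe-deficiency difference between tissues had 7 higher and 1 lower with the trended robust prior (10.1% and 1.45%, against 1.89% and 1.85% of all). With the replicate number as a block it had 7 higher (10.1%, against 1.99%). The block gave 30 lower in Fe-deficient roots (43.5%, against 2.96%). It gave 17 higher between irt1 and Fe-deficient roots (24.6%, against 1.31%). The replicate numbers are not known to pair arrays.

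With 1 array left out at a time, called members numbered 5 to 27 for Fe-deficient roots, 0 to 1 for irt1 roots, 0 to 5 for Fe-deficient shoots and 0 to 19 for irt1 shoots. They numbered 1 to 21 for irt1 against Fe-deficient roots, 0 to 3 for irt1 against Fe-deficient shoots, 1 to 8 for the Fe-deficiency difference between tissues, 0 to 11 for the irt1 difference and 68 to 69 for roots against shoots. These ranges include the fits, chosen after seeing the data, without replicate 1 of the irt1 shoots. Calls among all tested probe sets moved in these fits too. The median log2 fold change ran from -0.65 to -0.05 for irt1 shoots and likewise from -0.65 to -0.05 for the irt1 difference between tissues. Medians of contrasts with 0 calls changed sign, from -0.2 to 0.1 for irt1 roots and from -0.45 to 0.15 for irt1 against Fe-deficient shoots. With members of a mean under 5 left out, 59 were tested, all called lower in roots than in shoots. In the main fit of Fe-deficient against Fe-supplied wild-type roots, no member under 6.25 in Fe-supplied roots was called. With 2 arrays a group, dim members limit what can be seen. The spread between shoot replicates also enters each root test of the main fit. psbB and psbT, dim in roots, had gaps of 2.5 and 2.2 between the irt1 shoot replicates. Which of these kept dim members from a call was not tested.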
